A study of Mus musculus with 41 samples.

Results

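The genes described here are 10 members of the Bcl-2 family, taken from the 19434 genes of the count table by their symbols alone: Bcl2, Bcl2l1, Mcl1, Bax, Bak1, Bcl2l11, Bbc3, Pmaip1, Bid and Bad. All 10 had enough counts to be tested in both experiments. The 41 RNA-seq libraries came from mouse CD4 T cells sorted by flow cytometry for a study of Uhrf1, the protein that brings the maintenance DNA methyltransferase to newly replicated DNA, in regulatory T (Treg) cells. Treg cells are the CD4 T cells that depend on the transcription factor Foxp3 and restrain other immune cells.

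The chimera experiment held 4 libraries of CD25hi Foxp3-YFP+ cells from control mice (Uhrf1+/+ Foxp3YFP-Cre/YFP-Cre) and 4 from chimeric knockout mice (Uhrf1fl/fl Foxp3+/YFP-Cre), all described as female and 8 weeks old. Foxp3 lies on the X chromosome, so a heterozygous female keeps Treg cells without Cre beside those with it, whereas every Treg cell of the control carries Cre. The Uhrf1 genotype and this difference in the Foxp3 alleles cannot be told apart. The pulse-chase experiment used mice with Foxp3GFP-CreERT2 and the Cre reporter Rosa26SorCAG-tdTomato, which were Uhrf1+/+ (control, 5 libraries per population) or Uhrf1fl/fl (fl/fl, 6 libraries per population). They were 8 weeks old and had received tamoxifen chow for 2 weeks and then standard chow for 4 weeks. From each genotype 3 populations were sorted: labeled Treg cells (Foxp3-GFP+ tdTomato+), which had Foxp3 during the tamoxifen pulse and still had it, ex-Foxp3 cells (Foxp3-GFP- tdTomato+), which had lost it, and, last, Foxp3-GFP+ tdTomato- cells, called post-tamoxifen Treg cells, which had Foxp3 at the end without a reporter signal. All 6 pulse-chase groups carried the Cre and had been given tamoxifen. The labels name no tissue of origin.

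The Bcl-2 family sets whether a cell keeps its mitochondrial outer membrane intact. Pro-survival members (Bcl2, Bcl-xL from Bcl2l1, and Mcl1) bind and hold the other members in check, the effectors Bax and Bak1 form the pores that release cytochrome c, and the BH3-only members (Bim from Bcl2l11, Puma from Bbc3, Noxa from Pmaip1, Bid and Bad) neutralize the pro-survival proteins or activate the effectors. In T cells Bim is known as the main trigger of death after cytokine withdrawal, and Treg cells are known to depend on Mcl1 and on the balance of Mcl1 and Bim. Noxa binds mainly Mcl1. Much of the family's regulation acts on the proteins, which RNA counts do not show.

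Because Uhrf1 acts on methylated CG dinucleotides, the start-site windows of 3 members on which the results turn are given first. They are RefSeq windows (build GRCm38.p6) from upstream of the start site into the first bases of the transcript, 5′ to 3′ on the gene's strand, with every CG in capitals. The Bcl2 window lies at chr1:106714241-106714540 on the minus strand, that of Bcl2l11 at chr2:128125788-128126087 on the plus strand, and that of Bak1 at chr17:27028578-27028877 on the minus strand.
Bcl2: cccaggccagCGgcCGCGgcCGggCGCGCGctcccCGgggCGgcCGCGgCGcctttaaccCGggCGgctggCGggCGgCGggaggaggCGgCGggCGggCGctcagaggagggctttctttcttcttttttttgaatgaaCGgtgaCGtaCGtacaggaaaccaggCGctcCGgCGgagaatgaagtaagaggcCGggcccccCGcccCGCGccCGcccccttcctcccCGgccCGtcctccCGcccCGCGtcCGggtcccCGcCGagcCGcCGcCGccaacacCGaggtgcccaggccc
Bcl2l11: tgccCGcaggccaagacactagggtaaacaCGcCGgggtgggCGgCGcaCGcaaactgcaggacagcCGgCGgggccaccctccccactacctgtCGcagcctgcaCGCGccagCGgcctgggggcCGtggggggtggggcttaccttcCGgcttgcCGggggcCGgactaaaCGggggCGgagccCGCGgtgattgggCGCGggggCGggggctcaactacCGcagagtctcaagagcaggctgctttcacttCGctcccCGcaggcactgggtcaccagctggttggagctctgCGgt
Bak1: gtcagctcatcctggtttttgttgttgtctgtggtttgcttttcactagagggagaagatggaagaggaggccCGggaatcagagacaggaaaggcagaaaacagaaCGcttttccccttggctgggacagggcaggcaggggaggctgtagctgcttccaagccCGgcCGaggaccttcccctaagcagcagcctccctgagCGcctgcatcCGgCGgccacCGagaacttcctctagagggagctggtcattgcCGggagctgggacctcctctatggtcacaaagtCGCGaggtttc
The Bcl2 window held 44 CG, more than 97.8% of the 32851 windows of equal length in the table, whose median was 7. The Bcl2l11 window held 27 (more than 84.5% of windows) and the Bak1 window 11 (more than 58.6%). Of the 9 members with a window here, the other 6 held 19 (Bax) to 34 (Bbc3), so the Bak1 window had the fewest CG of the 9. That window lies inside the gene as counted, whose 5′ end is at chr17:27029009. It thus belongs to another start site, and the CG at the 5′ end of the counted gene were not looked at. Only CG, which reads the same on both strands, was counted. These letters show what could carry methylation, and methylation itself was not measured in these libraries.

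Counts of 3 members have a limit of identity. Bak1, Bid and Bad overlap Ggnbp1, Bcl2l13 with Gm17812, and Gpr137 on the opposite strand, and the gene identifiers printed beside these 3 symbols in the table belong to Ggnbp1, Bcl2l13 and Gpr137, while the coordinates and strand are those of the symbol. Bcl2 also overlaps D630008O14Rik on the opposite strand. The strand setting of the counting was not given in the sources used here, so the values of these 4 genes may include reads of their partners. The other 6 members have no opposite-strand overlap.

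Total counts ran from 781437 to 5709702 per library, so the rarest members rest on few reads: Pmaip1 had 1 to 105 counts per library (median 49), Bad 7 to 77 and Bid 5 to 171, against 580 to 4109 for Mcl1. Uhrf1 counts were lower in the chimeric knockout (log2 fold change -0.95 ± 0.25 SE, adjusted p = 0.0378), but the library labelled chimeric knockout 4 had 22.3 CPM, within the control range of 22.3 to 32.5. In labeled cells Uhrf1 did not differ by genotype (-0.15 ± 0.60, adjusted p = 0.961), nor in ex-Foxp3 cells (-0.20 ± 0.68, adjusted p = 0.976). In post-tamoxifen cells, which lack the reporter signal, mean Uhrf1 was higher in fl/fl mice (84.9 against 29.9 CPM), without passing the test (1.62 ± 0.64, adjusted p = 0.113). Genotype differences in those cells are thus not shown to be those of cells without Uhrf1. Counts over the whole gene do not check a deletion of single exons. Foxp3 was lower in ex-Foxp3 than in labeled cells of controls (-1.90 ± 0.39, adjusted p = 0.0235) and of fl/fl mice (-2.63 ± 0.37, adjusted p = 5.33e-05), and post-tamoxifen control 2 (123 CPM) and fl/fl 3 (128 CPM) had Foxp3 far below the rest of their groups. Y-linked transcripts were at 318 to 455 CPM in pulse-chase controls 2 and 3 and at 430.5 CPM in chimera control 1, and at 2.33 CPM or less elsewhere. Chimera controls 3 and 4 stood apart by B and plasma cell markers (78.3 and 73.8 CPM, others 5.64 to 14.2) and G2/M markers (544 and 468 CPM, others 117 to 270.2). In the pulse-chase, libraries numbered 1 to 3 mostly had more G2/M signal than those numbered 4 and above, up to 4931 against 532.6 CPM in post-tamoxifen fl/fl cells, and 10 of 11 post-tamoxifen libraries carried myeloid markers at 79.8 to 864 CPM, against 4.37 to 38.2 CPM in the labeled and ex-Foxp3 libraries and 17.8 CPM in post-tamoxifen control 2.

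Levels are given as CPM, read counts scaled to a common library size, and between genes as CPM per kilobase of merged exon. On the length-corrected scale Mcl1 led in all 8 groups, from 168 CPM per kilobase in fl/fl ex-Foxp3 cells to 245 in the chimeric knockout. Bcl2 came next in 7 of the 8 groups, at 21.7 to 65.3 CPM per kilobase, and just behind Bax in fl/fl labeled cells, where Bax was at 24.2 ± 5.84 and Bcl2 at 22.1 ± 6.30. The effectors were at 13.5 to 24.2 (Bax) and 13.6 to 25.1 (Bak1), Bcl2l1 at 7.92 to 14.7 and Bcl2l11 at 7.27 to 15.97. Their order changed between groups: in the chimeric knockout Bcl2l11 (15.97 ± 4.20) lay above Bax (13.5 ± 2.32), a difference within their SDs. Bid was at 3.86 to 8.89, Bbc3 at 4.11 to 7.08 and Bad at 2.77 to 6.42 CPM per kilobase, and Bid lay above Bcl2l11 in both labeled groups, within their SDs in controls (7.73 ± 1.76 and 7.28 ± 1.74). Pmaip1 ran from 2.995 in the chimeric knockout to 14.1 in fl/fl labeled cells, where it ranked 5. In the chimera control, at 3.47, it was the lowest of the 10.

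**Figure D1:**
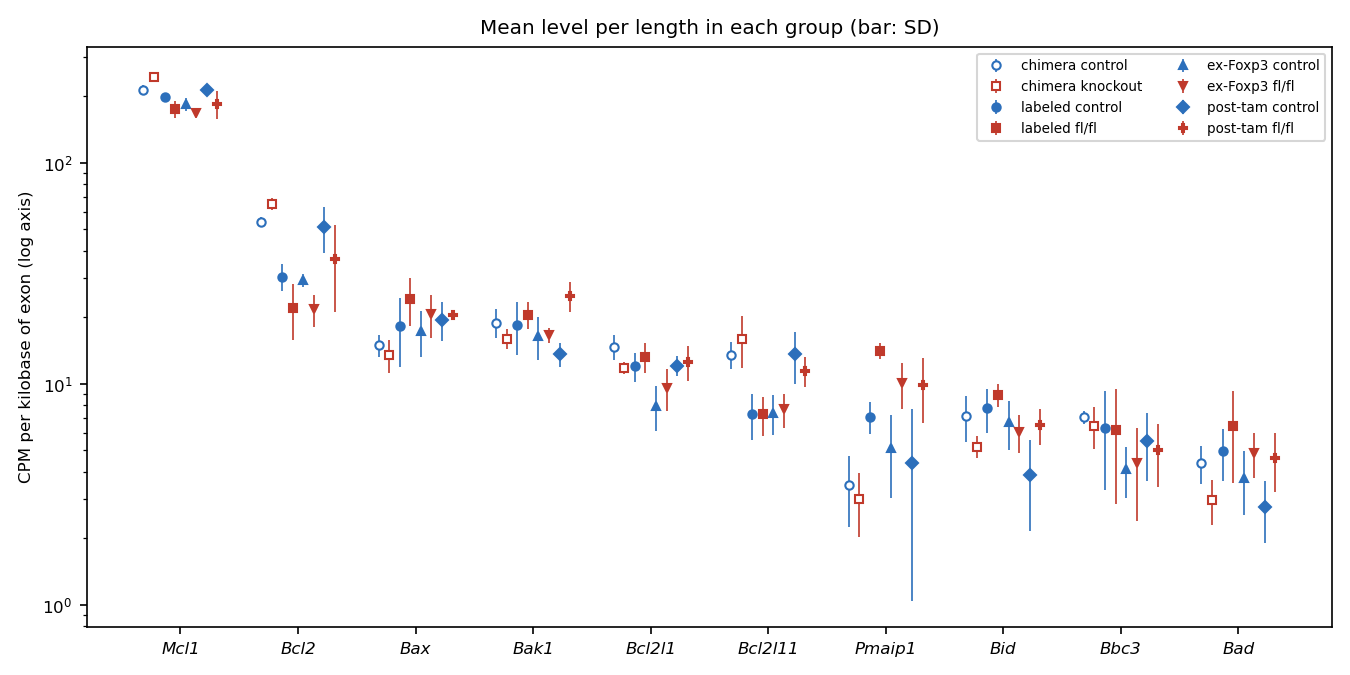
Mean CPM per kilobase of exon (log axis) of each of the 10 members in the 8 groups, with bars for the SD over libraries. Mcl1 lies above all other members in every group (168 to 245), while the low members Bid, Bbc3, Bad and Pmaip1 lie between 2.77 and 14.1.

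Among groups, Bcl2 was highest in the chimeric knockout (598 ± 36.3 CPM, SD, n = 4), then in the chimera control (493 ± 25.5), in post-tamoxifen control cells (468 ± 108, n = 5) and post-tamoxifen fl/fl cells (337 ± 144, n = 6), and lowest in labeled control (279 ± 38.8), ex-Foxp3 control (269.5 ± 18.4), labeled fl/fl (202 ± 57.7) and ex-Foxp3 fl/fl cells (199 ± 32.7). In this order the chimeric knockout stood more than 1 SD from the chimera control, and ex-Foxp3 control more than 1 SD from labeled fl/fl; the other neighbours differed by less than the larger SD of the pair. Scaling was done within each experiment, so the order across the experiments is a description. Bcl2l11, the Bim gene, had the same split: 128 ± 33.7 and 109 ± 15.0 CPM in the chimeric knockout and control, 109 ± 28.8 and 92.0 ± 14.3 in post-tamoxifen control and fl/fl cells, and 58.3 to 61.5 in the 4 groups of labeled and ex-Foxp3 cells. Mcl1 varied least relative to its level, from 574 ± 27.3 in ex-Foxp3 fl/fl cells to 836 ± 31.9 CPM in the chimeric knockout.

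**Figure D2:**
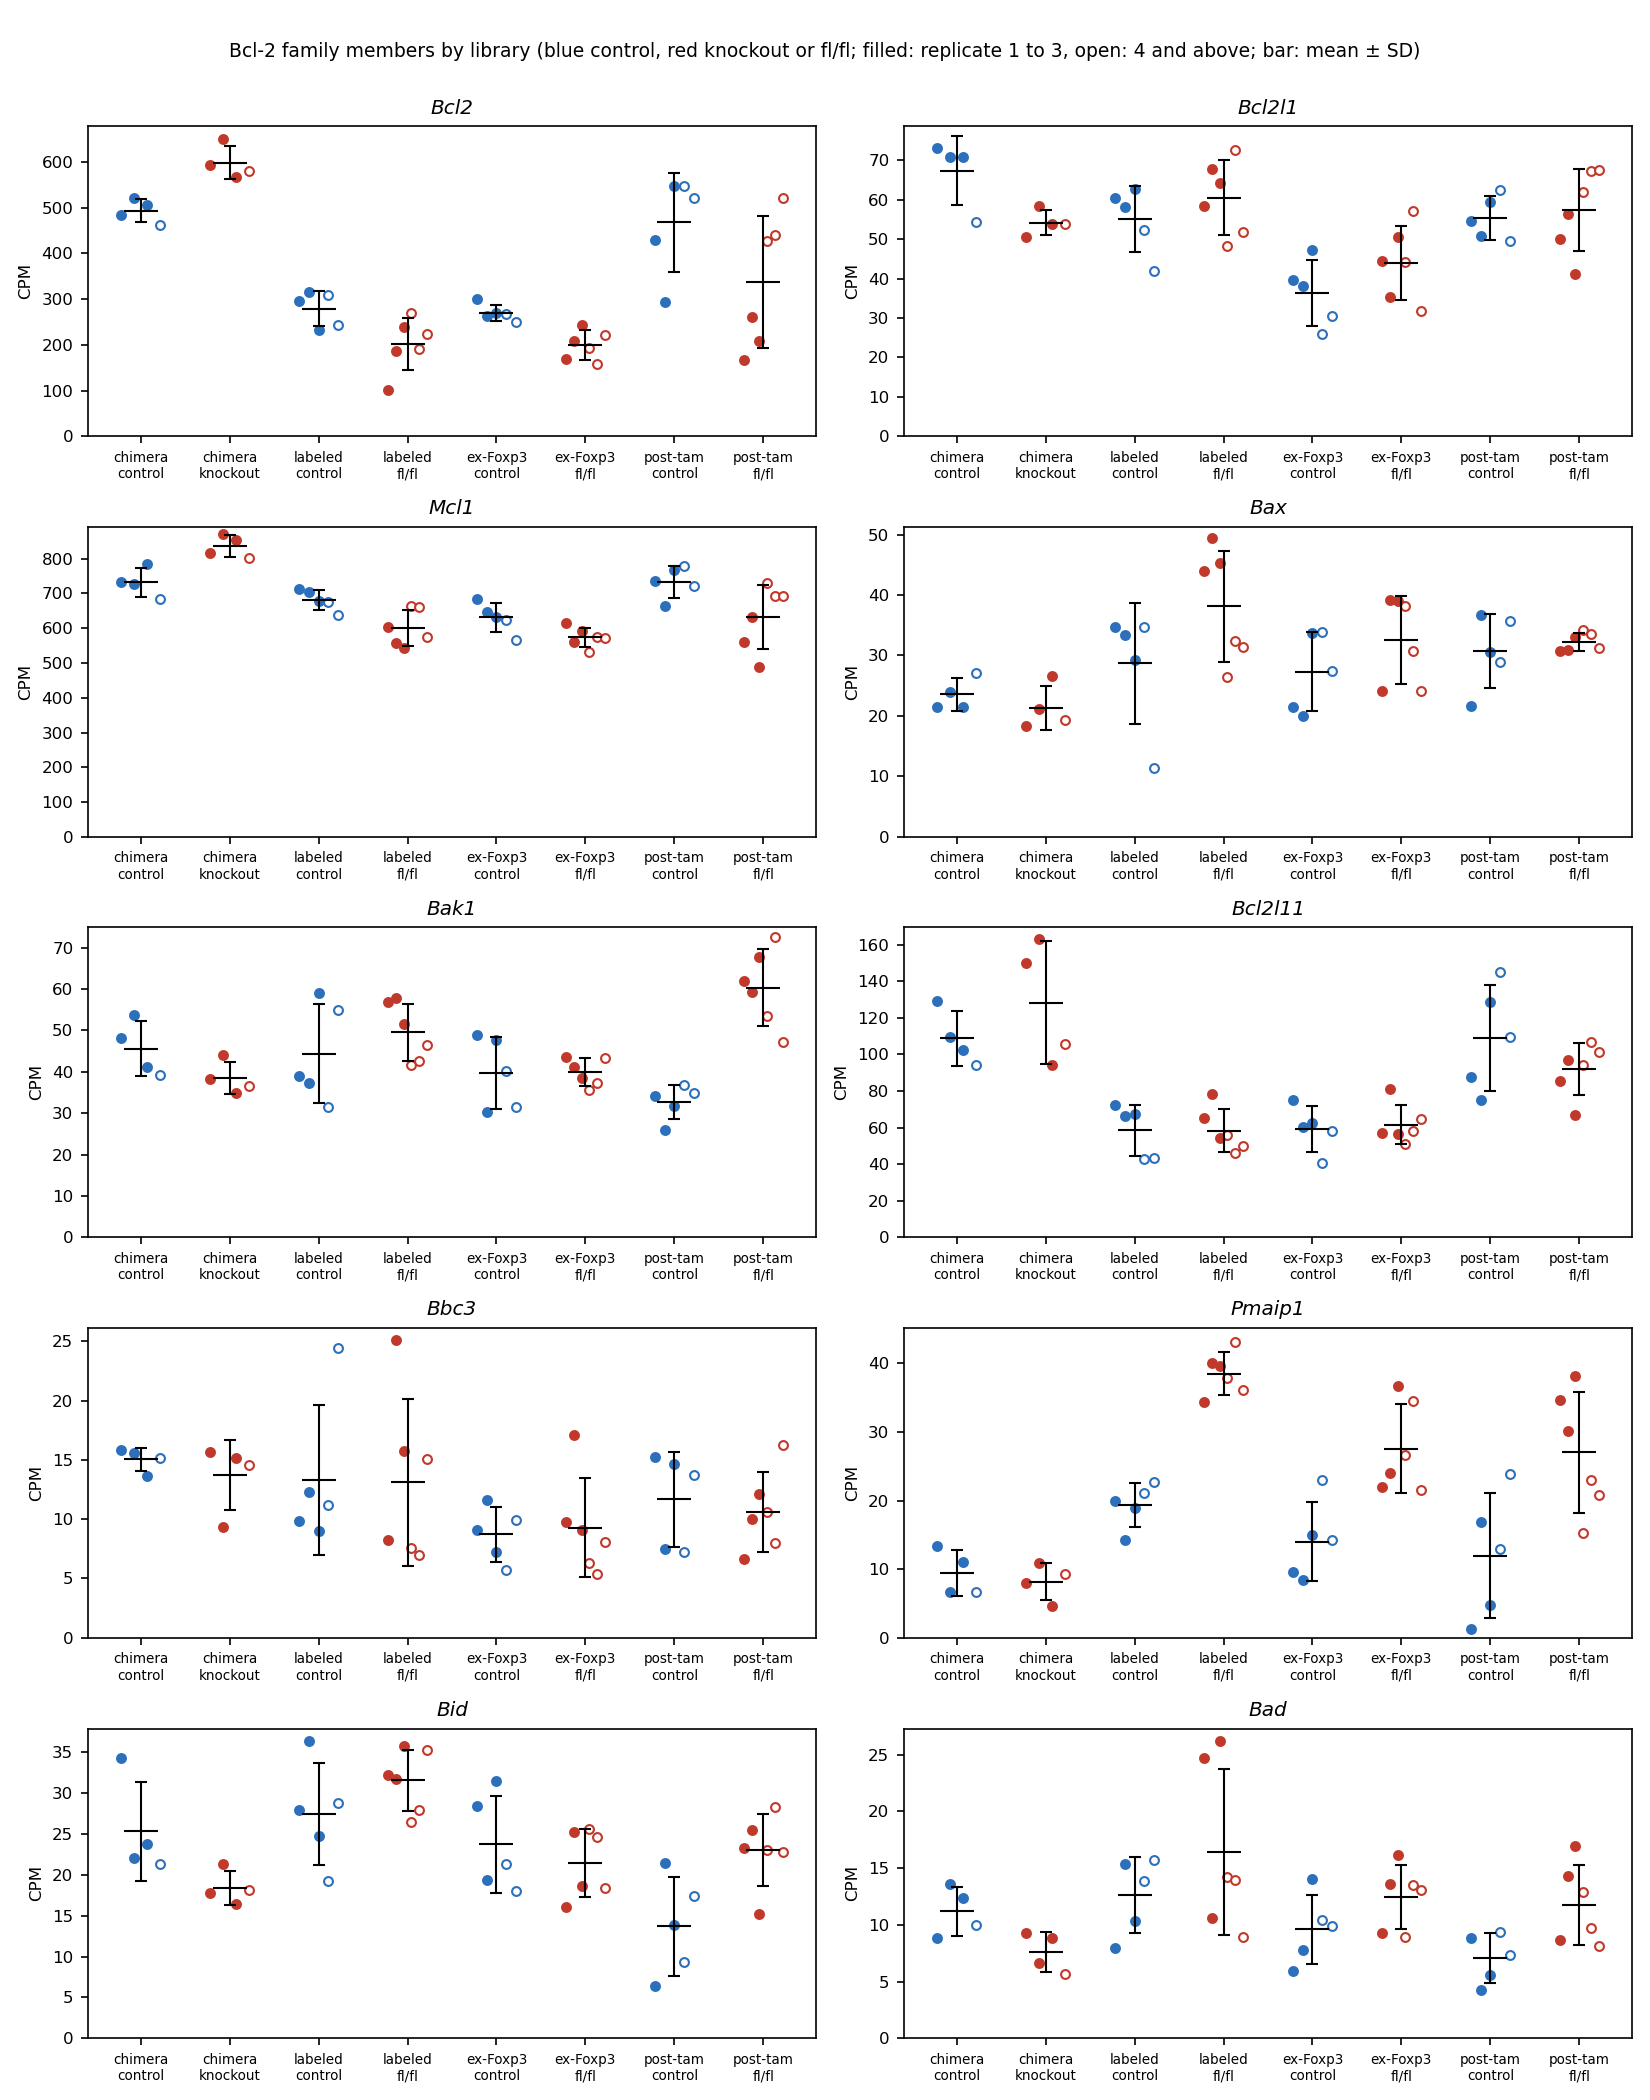
CPM of each of the 10 members in all 41 libraries, 1 panel per gene with groups on the x axis; points are libraries (filled for replicate numbers 1 to 3, open for 4 and above) and bars are mean ± SD. Bcl2 and Bcl2l11 sit low in the labeled and ex-Foxp3 groups, and Pmaip1 sits higher in the 3 fl/fl groups (means 27.0 to 38.5) than in the controls (11.95 to 19.4).

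The chimera comparison sets Treg cells of the chimeric knockout, which developed beside Cre-negative Treg cells, against control Treg cells, which all carried Cre. Its differences cannot be assigned to the Uhrf1 genotype or to the Foxp3 alleles, as said above. Of the pro-survival members, Bcl2 was higher in the chimeric knockout, with 593, 650.0, 568 and 580.2 CPM against 485, 521, 505 and 462 CPM in the controls. Every knockout library lay above every control library. The difference was 1.21-fold (log2 0.28 ± 0.070 SE, 95% interval 0.14 to 0.41, adjusted p = 0.0274). Bcl2 was the 1 member of 10 called, where 2.41% of all 9569 genes tested were called and 0.857% were called higher.

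The call for Bcl2 was a narrow one. It was lost without control 1, the library with Y-linked reads (adjusted p = 0.0858), without control 3 (0.0594), control 4 (0.0814), knockout 1 (0.0544) or knockout 2 (0.125), and without controls 3 and 4 together (log2 0.25, adjusted p = 0.17). Without the library labelled chimeric knockout 4 it held (adjusted p = 0.0176). The difference itself stayed between 0.24 and 0.31 log2 when single libraries were left out. With the G2/M marker sum as a term it was 0.27 (adjusted p = 0.102).

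Mcl1 was at 818, 872, 853 and 802 CPM in the knockouts and at 732, 726, 784 and 685 CPM in the controls. The 2 groups did not overlap, yet the difference of 0.19 ± 0.066 log2 missed the threshold (adjusted p = 0.13), while DESeq2 called it (adjusted p = 0.0248). Bcl2l1 had 50.5, 58.4, 53.9 and 53.9 CPM in the knockouts and 73.2, 70.9, 70.9 and 54.3 in the controls. Its 3 higher controls stood clear of all knockouts and the fourth did not (log2 -0.31 ± 0.13, adjusted p = 0.229). The effectors Bax and Bak1 and the BH3-only members Bbc3, Pmaip1, Bid and Bad had lower means in the knockout by 0.15 to 0.56 log2, with adjusted p from 0.285 to 0.883. Bcl2l11 had a higher mean (0.25 ± 0.17, adjusted p = 0.603), with knockout libraries from 94.0 to 163 CPM around controls of 94.3 to 129. The median change over the 10 members was -0.17 log2, against 0.00085 over all genes tested.

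In labeled cells, which had Foxp3 and Cre activity at the pulse and kept Foxp3, none of the 10 members passed the edgeR test between genotypes, where 0.0101% of all 9921 genes did. DESeq2 called 0 of the members and 0.484% of all genes. The largest difference was in Pmaip1, the gene of Noxa. Its control libraries had 20.004, 14.2, 18.9, 21.2 and 22.7 CPM, and its fl/fl libraries ran from 34.3 through a median of 38.7 to 43.0 CPM. All 6 fl/fl libraries lay above all 5 controls (2.0-fold, log2 1.0 ± 0.29, 95% interval 0.43 to 1.57, adjusted p = 0.167). A fit of these 2 groups alone called it (adjusted p = 0.0103). Without controls 2 and 3, which held Y-linked reads, the difference was 0.87 (adjusted p = 0.468), and it was 1.10 in numbers 1 to 3 and 0.84 in numbers 4 and above.

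In ex-Foxp3 cells none of the 10 members was called between genotypes either (0.181% of all genes were). DESeq2 also called 0 of them, against 0.876% of all genes. Pmaip1 again had the largest difference: controls were at 9.65, 8.40, 14.9, 22.9 and 14.3 CPM and fl/fl libraries at 21.5 to 36.7 with a median of 25.4. Control 4 lay inside the fl/fl range (log2 0.96 ± 0.30, adjusted p = 0.185; 0.0374 in a fit of these 2 groups alone). Bcl2 was at 299, 263, 270.1, 266 and 249 CPM in the controls and at 157 to 244 CPM (median 200.3) in fl/fl cells. No fl/fl library reached the lowest control. The difference of -0.44 ± 0.23 log2 had an adjusted p of 0.623 with the spread shared over all 6 groups and of 0.0227 in a fit of these 2 groups alone. The 95% interval of the shared fit, -0.90 to 0.018, includes 0.

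In post-tamoxifen Treg cells, which showed no reporter signal, 2 of the 10 members were higher in fl/fl mice, where 7.23% of all genes were called and 3.9% of all genes were called higher: the effector Bak1 and Pmaip1. Bak1 stood at 34.2, 26.0, 31.7, 36.9 and 34.8 CPM in controls and at 47.1 to 72.5 CPM, with a median of 60.6, in fl/fl cells. The groups did not overlap. The difference was 1.84-fold (log2 0.88 ± 0.16, 95% interval 0.57 to 1.20, adjusted p = 0.00101), and it held without any single library (adjusted p at most 0.00515). It was 1.06 in numbers 1 to 3 (adjusted p = 0.00142) and 0.67 in numbers 4 and above (adjusted p = 0.16), 0.86 with the myeloid marker sum as a term, 0.77 with the G2/M sum and 0.77 without controls 2 and 3, and it was called in each of these last 3 fits. The counts may include reads of Ggnbp1, as said above.

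Pmaip1 was at 1.27, 16.9, 4.76, 13.0 and 23.8 CPM in post-tamoxifen controls and at 15.2 to 38.2 CPM (median 26.6) in fl/fl cells. The groups overlapped, and the controls spread widely. The fit gave a 2.098-fold difference (log2 1.07 ± 0.30, adjusted p = 0.0256). The difference sat in the libraries numbered 1 to 3, where it was 1.89 (adjusted p = 0.00197), with fl/fl libraries at 34.7, 30.2 and 38.2 CPM and controls at 1.27, 16.9 and 4.76. In numbers 4 and above it was 0.11 (adjusted p = 0.939), with 15.2, 23.0 and 20.8 CPM against 13.0 and 23.8. The 3 fl/fl libraries numbered 1 to 3 also had 3070 to 4931 CPM of G2/M markers and 167 to 554 CPM of B and plasma cell markers, against 318 to 532.6 and 10.2 to 11.3 CPM in the other 3. Leaving out control 3, control 4 or any of these 3 fl/fl libraries ended the call (adjusted p 0.0548 to 0.0947), as did the G2/M term (0.0738), leaving out controls 2 and 3 (0.114) and a fit of these 2 groups alone (0.181).

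The other BH3-only members Bid (log2 0.67 ± 0.22, adjusted p = 0.0574) and Bad (0.78 ± 0.31, adjusted p = 0.114) had higher means in fl/fl post-tamoxifen cells without passing the test, and Bcl2l11 and Bbc3 were at -0.26 and -0.08. Leaving out the 2 libraries with low Foxp3 took Bid past it (1.01, adjusted p = 0.00691). Mcl1 was at 490 to 730.3 CPM in fl/fl cells and at 736, 664, 769, 779 and 722 CPM in controls (-0.21 ± 0.082, adjusted p = 0.0961). Bcl2 spread most: 167, 262 and 208 CPM in fl/fl libraries 1 to 3 and 426, 440.4 and 520.5 in 4 to 6, against 429.9, 294, 546, 547 and 521 in controls. Over all libraries its difference was -0.47 ± 0.23 (adjusted p = 0.204), in numbers 1 to 3 it was -0.99 (adjusted p = 0.032) and in numbers 4 and above -0.20 (adjusted p = 0.553). The 3 low fl/fl libraries are those with high G2/M and B cell markers, whose part in the result was not tested beyond the G2/M term, with which the difference was -0.26 (adjusted p = 0.553).

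Side by side, the genotype difference of Bcl2 was 0.28 log2 in the chimera and -0.47, -0.44 and -0.47 in labeled, ex-Foxp3 and post-tamoxifen cells, and that of Pmaip1 was -0.18 in the chimera and 1.0, 0.96 and 1.07. The chimera and the pulse-chase were fitted apart, and this difference in sign was not tested. Mcl1 ran the same way as Bcl2 (0.19, then -0.18, -0.13 and -0.21). Within the pulse-chase the genotype effects on the members could be compared between populations. The test of genotype by Foxp3 loss (ex-Foxp3 against labeled) called none of the 10 members and 0% of all genes, by edgeR and by DESeq2. The test of genotype by tamoxifen label (labeled against post-tamoxifen) also called none of them by edgeR or DESeq2, and 0.0202% of all genes. Bak1 had the smallest p of the members there. Its genotype difference was 0.70 ± 0.22 log2 smaller in labeled than in post-tamoxifen cells (95% interval of the interaction -1.14 to -0.26, adjusted p = 0.513). Over all libraries the Pmaip1 interaction was -0.07 (95% interval -0.88 to 0.74), but the subsets by number differed. In numbers 1 to 3 its fl/fl and control means were 38.0 and 17.7 CPM in labeled and 34.3 and 7.65 CPM in post-tamoxifen cells. In numbers 4 and above they were 39.0 and 21.9 CPM in labeled and 19.7 and 18.4 CPM in post-tamoxifen cells.

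**Figure D3:**
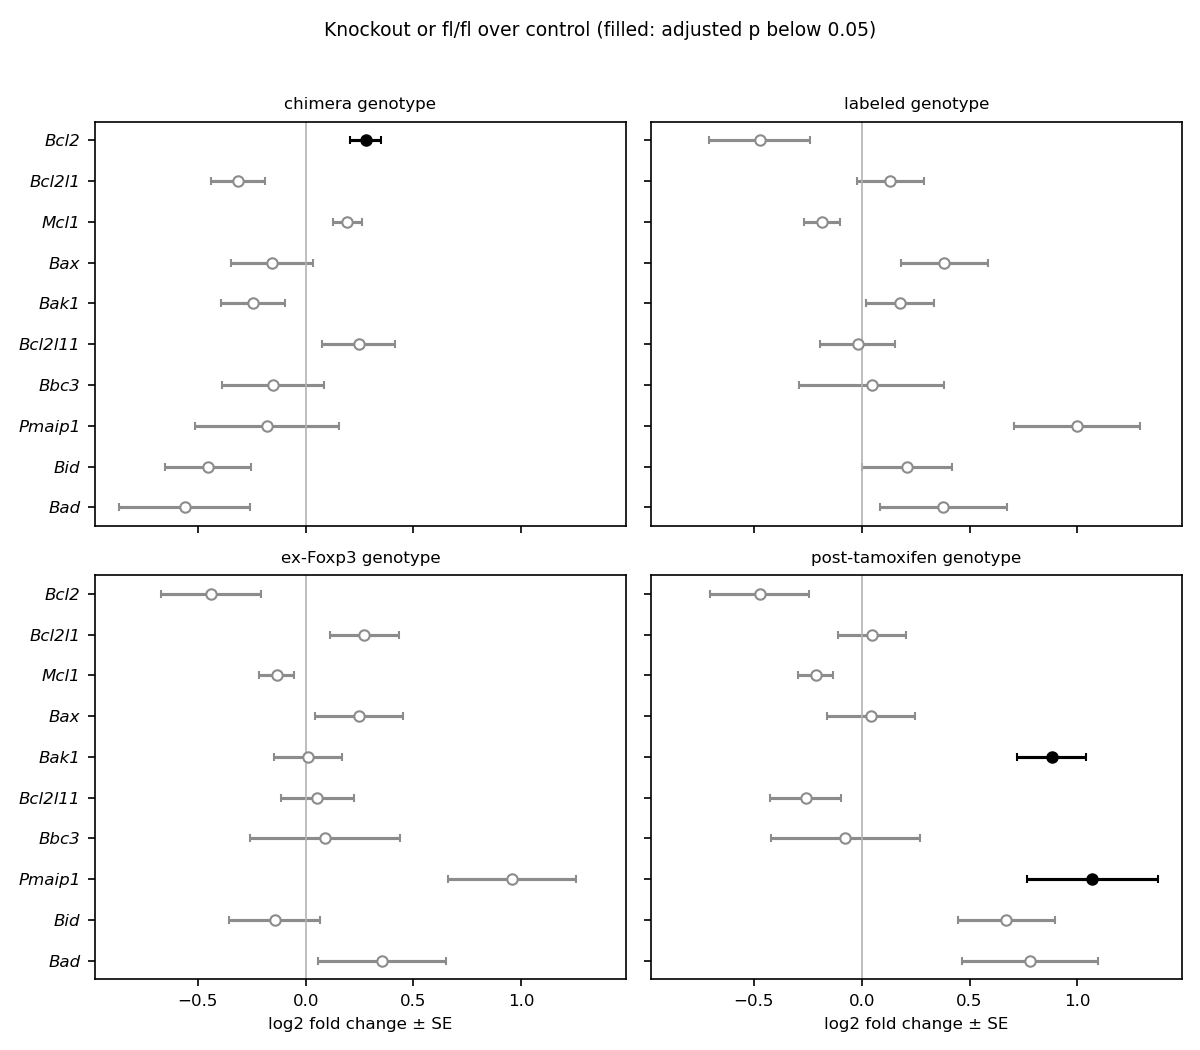
Log2 fold change ± SE of each member, chimeric knockout or fl/fl over control, in the 4 cell populations; filled points passed the test (adjusted p below 0.05). Bcl2 is to the right of 0 in the chimera (0.28) and to the left in the 3 pulse-chase panels (-0.44 to -0.47), and Pmaip1 lies near 1 in those 3.

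Labeled cells carried less Bcl2l11 than post-tamoxifen Treg cells in both genotypes. In controls Bcl2l11 was at 72.1, 66.3, 67.2, 43.1 and 43.6 CPM in labeled and at 87.5, 74.8, 129, 145 and 109 CPM in post-tamoxifen cells. The groups did not overlap, and labeled cells were 1.86-fold lower (log2 -0.90 ± 0.18, 95% interval -1.24 to -0.55, adjusted p = 0.00117). Bid, the BH3-only member that caspase-8 cleaves, went the other way: 27.9, 36.4, 24.8, 19.2 and 28.8 CPM in labeled against 6.34, 21.5, 13.9, 9.40 and 17.4 in post-tamoxifen cells (1.91-fold, log2 0.93 ± 0.23, adjusted p = 0.00737). Only labeled library 4 lay within the post-tamoxifen range. In a fit of these 2 groups alone Bid lost the call (0.94, adjusted p = 0.0517). These were 2 of 10 members, where 7.93% of all genes were called (3.98% higher and 3.95% lower). In fl/fl mice 1 of 10 was called, against 4.58% of all genes (2.78% lower). It was Bcl2l11, at 46.3 to 78.4 CPM (median 55.1) in labeled and 66.8 to 107 CPM (median 95.6) in post-tamoxifen cells (log2 -0.66 ± 0.16, adjusted p = 0.0127).

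Bcl2 was also lower on average in labeled cells and narrowly missed the threshold: -0.74 ± 0.24 log2 in controls (adjusted p = 0.0566) and -0.74 ± 0.22 in fl/fl mice (adjusted p = 0.0535). With the replicate number within a genotype as a block both passed (adjusted p = 0.0328 in controls and 0.0371 in fl/fl mice). Same-numbered libraries of the controls did not all correlate above 0.1 here (0.0324 to 0.319). DESeq2 also called both (0.0332 in controls and 0.0268 in fl/fl mice). A fit of the compared groups alone called it in controls (0.0122) and not in fl/fl mice (0.33). With single libraries left out the adjusted p ran from 0.0178 to 0.143 in controls and from 0.0126 to 0.161 in fl/fl mice. In controls its labeled libraries were at 296, 316, 232, 309.7 and 243 CPM, below 4 of the 5 post-tamoxifen libraries. The exception was post-tamoxifen control 2 at 294 CPM, the library with low Foxp3 and few myeloid markers. Without the low-Foxp3 libraries the difference was -0.86 in controls (adjusted p = 0.0114) and -0.85 in fl/fl mice (adjusted p = 0.0145). Bcl2l1 and Mcl1 were near equal in labeled and post-tamoxifen cells of both genotypes (-0.11 to 0.09 log2, adjusted p 0.542 to 0.996). For Bcl2l1 in controls the 95% interval was -0.31 to 0.32.

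Ex-Foxp3 cells carried less of several members than post-tamoxifen Treg cells. In controls 2 of 10 members were called, both lower, where 5.33% of all genes were called and 2.76% were lower. Bcl2l11 was at 75.1, 60.1, 62.6, 40.7 and 57.9 CPM in ex-Foxp3 cells, with 1 library just above the lowest post-tamoxifen value of 74.8 (log2 -0.89 ± 0.18, adjusted p = 0.00168). Bcl2l1, the Bcl-xL gene, was at 39.7, 38.1, 47.3, 26.1 and 30.6 CPM against 54.5, 50.8, 59.5, 62.5 and 49.4 in post-tamoxifen cells. The groups did not overlap (1.53-fold lower, log2 -0.61 ± 0.17, adjusted p = 0.0214). Leaving out ex-Foxp3 library 4 or 5 or post-tamoxifen library 3 or 4 ended that call (adjusted p 0.0716 to 0.0967). Bcl2 was at -0.80 ± 0.24 (adjusted p = 0.051) and Bid at 0.72 ± 0.23 (adjusted p = 0.0569).

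In fl/fl mice 3 of 10 members were called, all lower in ex-Foxp3 cells, where 15.2% of all genes were called and 9.39% were lower. Bcl2 was at 157 to 244 CPM (median 200.3) against 167 to 520.5 (median 344), a log2 difference of -0.76 ± 0.22 (adjusted p = 0.0203). It lost the call without post-tamoxifen library 6 (-0.60, adjusted p = 0.0626) and in a fit of these 2 groups alone (adjusted p = 0.0823). Bak1 was at 35.6 to 43.6 CPM in ex-Foxp3 cells and at 47.1 to 72.5 in post-tamoxifen cells, with no overlap (log2 -0.59 ± 0.15, adjusted p = 0.00561), and in controls its difference was 0.28 ± 0.17 (adjusted p = 0.46). Bcl2l11 was at 50.8 to 81.2 CPM (median 57.7) against 66.8 to 107 (log2 -0.58 ± 0.16, adjusted p = 0.0123). Bcl2l1 was at 31.9 to 57.1 CPM against 41.2 to 67.6 (-0.39 ± 0.15, adjusted p = 0.0736) and passed with the replicate number within a genotype as a block (adjusted p = 0.0337).

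These 4 comparisons share their post-tamoxifen libraries, 10 of 11 of which hold myeloid markers. All 8 myeloid genes of the list were detected in every group but ex-Foxp3 controls, where 7 of 8 were, with Emr1 at 0. Their summed levels ran from 17.8 to 586 CPM in post-tamoxifen controls and from 79.8 to 864 CPM in post-tamoxifen fl/fl cells, against 4.37 to 38.2 CPM in the labeled and ex-Foxp3 groups. With the myeloid sum as a term every main-test call of a member in these comparisons was lost: Bcl2l11 was then at -0.81 (adjusted p = 0.0592) and -0.56 (0.387) in labeled, and at -0.77 (0.298) and -0.47 (0.443) in ex-Foxp3 cells of controls and fl/fl mice, Bid at 0.57 (0.297), Bcl2l1 at -0.66 (0.312), Bcl2 at -0.91 (0.224) and Bak1 at -0.19 (0.793). The term cut the calls over all genes too. They fell from 7.93% to 2.47% and from 4.58% to 0.131% in labeled cells of controls and fl/fl mice. In ex-Foxp3 cells they fell from 5.33% to 0.0101% and from 15.2% to 2.11%. Since the sum largely follows the post-tamoxifen groups, a lost call cannot tell myeloid cells from the difference between populations. Bad passed with that term in labeled against post-tamoxifen controls (1.61, adjusted p = 0.0294; 0.86 ± 0.32, adjusted p = 0.104 without it). In post-tamoxifen control 2, which has 17.8 CPM of myeloid markers, Bcl2l11 (74.8 CPM) and Bcl2 (294 CPM) were the lowest of their group, and that library also has low Foxp3. The library with the most myeloid signal in each post-tamoxifen group is given next, and a cause was not tested. Post-tamoxifen fl/fl 3 (864 CPM of myeloid markers, low Foxp3) had the lowest Bcl2l11 of its group, 66.8 CPM, with Bcl2 at 208 CPM. Post-tamoxifen control 1 (586 CPM) had Bcl2l11 at 87.5 and Bcl2 at 430 CPM. In bulk RNA, fewer cells of a type and less RNA per cell cannot be told apart.

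Leaving out the 2 post-tamoxifen libraries with low Foxp3 (control 2 and fl/fl 3) kept each of these calls and added others. Bcl2l11 was then at -1.003 (adjusted p = 4.41e-05) and -0.73 (0.00283) in labeled and at -1.01 (4.28e-05) and -0.67 (0.00224) in ex-Foxp3 cells of controls and fl/fl mice, and Bid in labeled controls at 1.16 (0.000523). In ex-Foxp3 controls 5 members passed, where 9.29% of all genes did: Bcl2l11, Bcl2l1 (-0.64, adjusted p = 0.0101), Bcl2 (-0.92, 0.00743), Mcl1 (-0.25, 0.0378) and Bid (0.95, 0.00535). In ex-Foxp3 fl/fl cells Bcl2 (-0.88, adjusted p = 0.00475) and Bak1 (-0.56, 0.012) stayed called, and Bcl2l1 (-0.48, 0.028) and Mcl1 (-0.22, 0.0392) passed, where 12.8% of all genes were called. Without controls 2 and 3, which held Y-linked reads, the calls also held: in controls Bcl2l11 was at -1.11 (adjusted p = 0.00267) in labeled and at -0.999 (0.00744) in ex-Foxp3 cells, Bid at 1.10 (0.0237) and Bcl2l1 at -0.79 (0.0341), and in fl/fl mice the 4 calls had adjusted p from 0.00349 to 0.0272.

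The replicate numbers divided these results further. Bcl2l11 in labeled against post-tamoxifen cells was at -0.50 (adjusted p = 0.188) in numbers 1 to 3 and -1.55 (7.61e-07) in numbers 4 and above of controls, and at -0.32 (0.669) and -1.0 (6.36e-05) in fl/fl mice. In ex-Foxp3 against post-tamoxifen cells it was at -0.57 (0.306) and -1.34 (3.98e-06) in controls and at -0.35 (0.291) and -0.80 (0.000549) in fl/fl mice. Each of these differences was thus negative in both subsets and past the threshold in numbers 4 and above. In numbers 1 to 3, however, 0% of all genes passed in ex-Foxp3 against post-tamoxifen controls. Bcl2 in ex-Foxp3 against post-tamoxifen fl/fl cells was at -0.05 (0.945) and -1.28 (2.76e-10), since its post-tamoxifen mean was 212 CPM in numbers 1 to 3 and 462 in numbers 4 and above. Bcl2l1 in controls was at -0.39 (0.488) and -0.97 (0.01). Bid in labeled against post-tamoxifen controls (0.96 and 0.83) passed in neither subset.

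**Figure D4:**
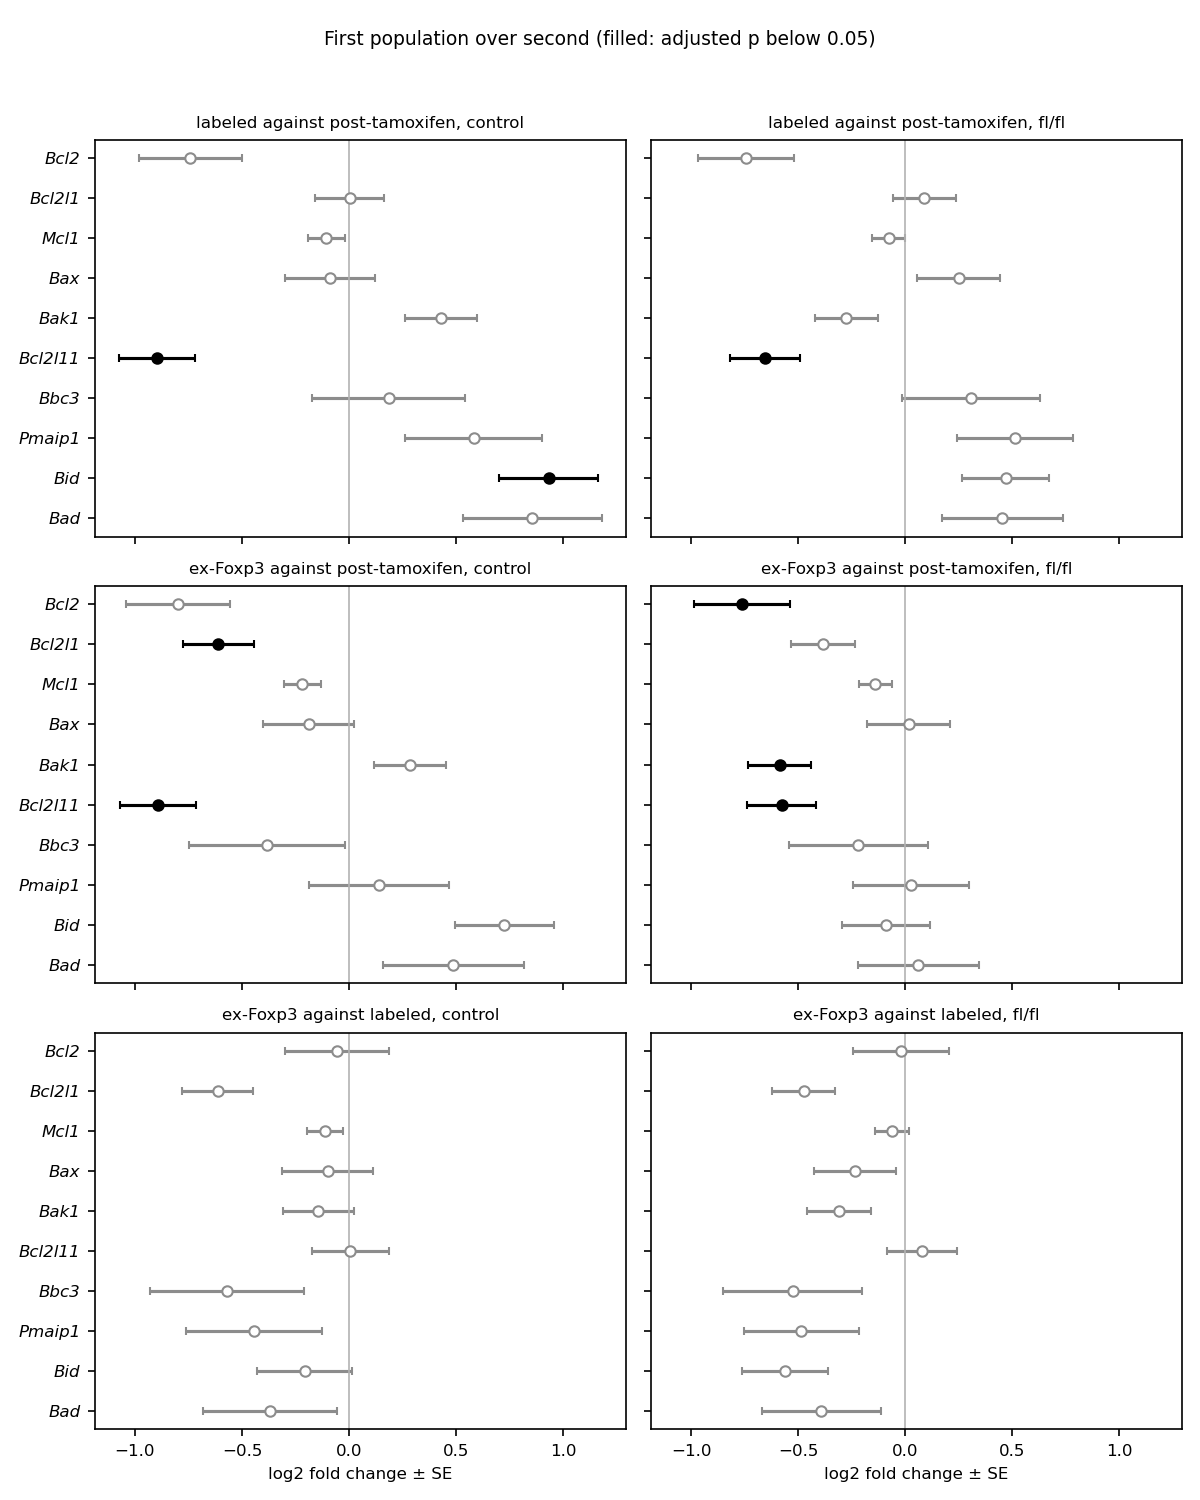
Log2 fold change ± SE of each member between sorted populations, the first named over the second, in controls (left) and fl/fl mice (right); filled points passed the test (adjusted p below 0.05). Bcl2l11 lies to the left of 0 in the 4 panels against post-tamoxifen cells (-0.58 to -0.90) and at 0.01 and 0.08 in ex-Foxp3 against labeled cells.

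Ex-Foxp3 and labeled cells both carry the reporter and differ in Foxp3. None of the 10 members was called between them in controls (0.353% of all genes) or in fl/fl mice (4.09% of all genes). DESeq2 called 1 member in each, where it called 0.835% and 5.32% of all genes. The member nearest the threshold in both was Bcl2l1, known as a target of STAT5 below the IL-2 receptor. In controls it was at 39.7, 38.1, 47.3, 26.1 and 30.6 CPM in ex-Foxp3 and at 60.4, 58.2, 62.7, 52.3 and 41.9 CPM in labeled cells, so that 1 library of each group lay in the other's range (-0.61 ± 0.17, adjusted p = 0.0962). In fl/fl mice it was at 31.9 to 57.1 against 48.3 to 72.6 CPM (-0.47 ± 0.15, adjusted p = 0.0601). With the replicate number within a genotype as a block both passed (adjusted p = 0.0272 and 0.0218), and DESeq2 called both (0.0417 and 0.0327). Bid in fl/fl mice was at 16.1 to 25.6 against 26.5 to 35.7 CPM, without overlap (-0.56 ± 0.20, adjusted p = 0.107). Bcl2 and Bcl2l11 differed by -0.06 to 0.08 log2 in both genotypes, with 95% intervals of -0.53 to 0.42 and -0.35 to 0.36 in controls.

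Of the 10 members, 4 passed the main test in no comparison: Mcl1, Bax, Bbc3 and Bad. Bax, the effector that moves to mitochondria on activation, had group means of 21.3 to 38.1 CPM, and its largest genotype difference was 0.38 ± 0.20 log2 in labeled cells (adjusted p = 0.578), with fl/fl libraries at 26.5 to 49.3 CPM and controls at 34.7, 33.3, 29.3, 34.6 and 11.3. Labeled control 5 was the low one, and the other 4 lay inside the fl/fl range. Bbc3, a p53 target, had group means of 8.72 to 15.0 CPM and no difference above 0.57 log2 (adjusted p 0.409 or more). Bad, whose protein is held inactive by phosphorylation, had group means of 7.08 to 16.4 CPM. Its SEs of 0.28 to 0.33 log2 in the pulse-chase comparisons of 2 groups rest on 7 to 55 counts per library. In ex-Foxp3 against post-tamoxifen controls, for example, the 95% interval was -0.15 to 1.13.

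Within libraries, the log2 ratio of Bcl2 to Bcl2l11 was 2.1 to 2.28 on average in the control groups and the 2 chimera groups, and 1.69 to 1.77 in the 3 fl/fl groups, with SDs of 0.17 to 0.65. The ratio of Mcl1 to Bcl2l11 was 2.79 ± 0.31 (SD) in post-tamoxifen controls and 2.79 ± 0.11 in post-tamoxifen fl/fl cells, 3.58 ± 0.32 and 3.38 ± 0.35 in labeled cells, and 3.44 ± 0.30 and 3.24 ± 0.24 in ex-Foxp3 cells of controls and fl/fl mice. These ratios of counts are not corrected for length and are a description of how 2 members moved within a library.

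Across the 33 pulse-chase libraries Bcl2l11 rose with the myeloid sum (Pearson r = 0.69 of log2 values), Bcl2 rose with it less (0.48) and Bid fell (-0.53). Against the G2/M sum the values were -0.39 for Bcl2 and 0.51 for Bak1. These libraries share groups and may share mice, and they differ in depth, so the correlations are descriptions only.

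**Figure D5:**
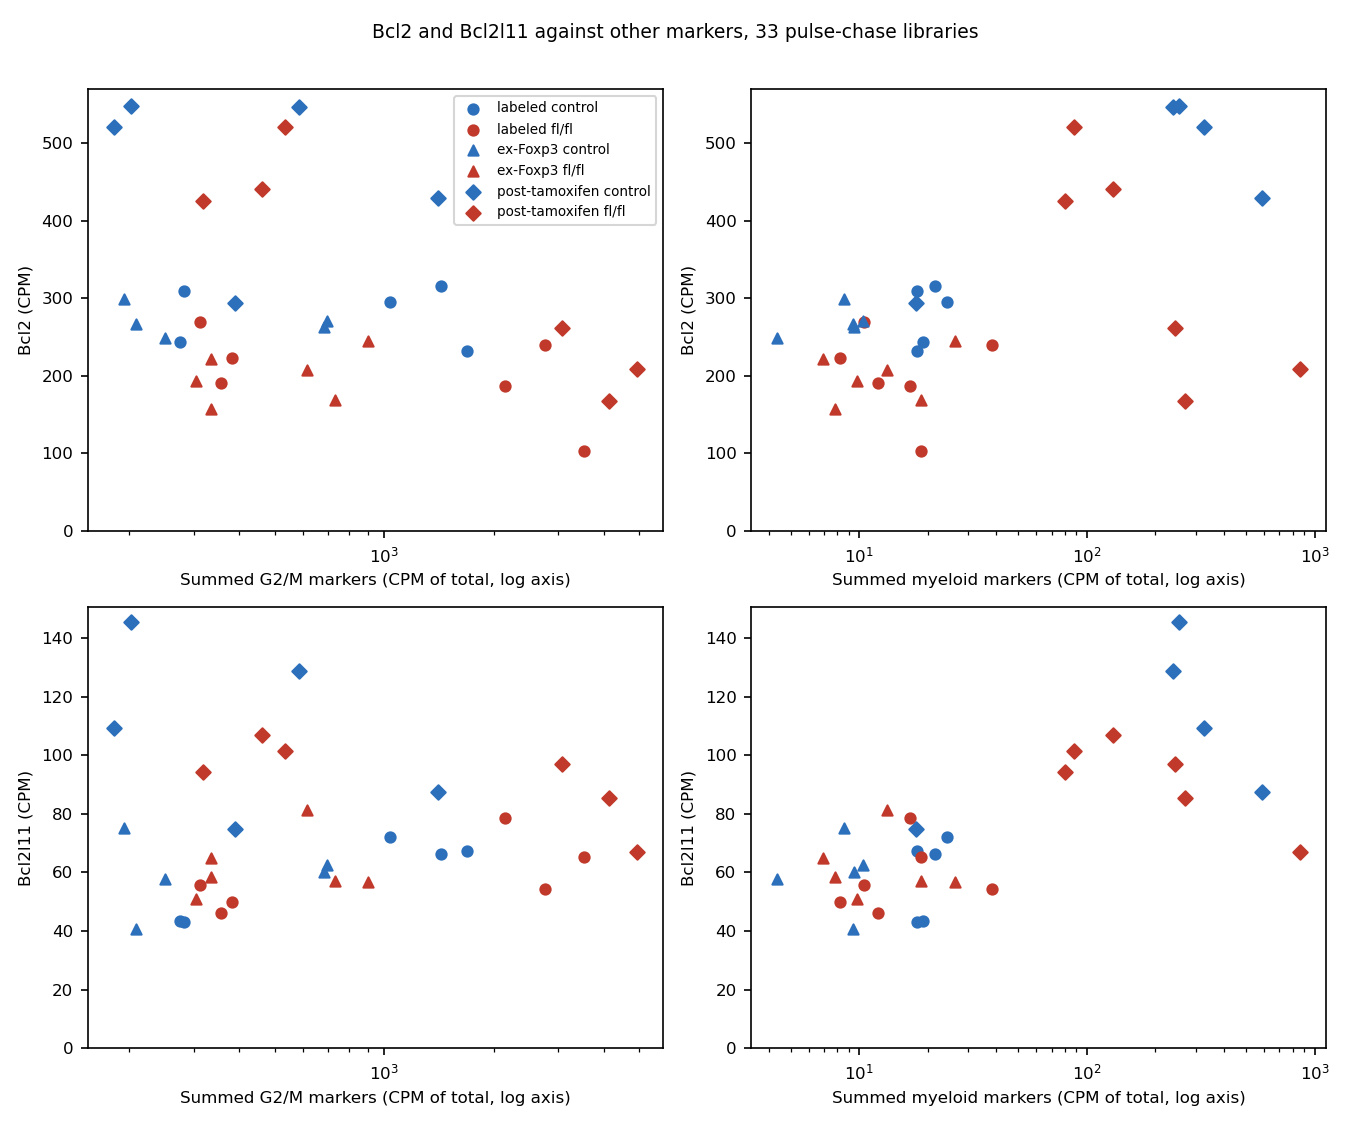
CPM of Bcl2 (top) and Bcl2l11 (bottom) against the summed G2/M markers (left) and summed myeloid markers (right), both on log axes, in the 33 pulse-chase libraries; colour gives the genotype and shape the population. Post-tamoxifen libraries with high Bcl2 and Bcl2l11 lie at 79.8 CPM of myeloid markers or more, and the 3 post-tamoxifen fl/fl libraries at 3070 to 4931 CPM of G2/M markers have 167 to 262 CPM of Bcl2.

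Genes whose levels followed a member most closely over the 33 libraries were ranked among 7092 genes by Pearson correlation of log2 CPM, and for each gene the second value is the correlation after removal of the 6 group means. Bcl2 went with Treml2 (0.91, then 0.80), Bach2, a repressor of effector differentiation in T cells (0.89, 0.85), and Dgkd (0.86, 0.78). Bcl2l11 went with Myb (0.83, 0.56) and Gpr146 (0.81, 0.57). Pmaip1 went with Bhlhe40 (0.86, 0.66), Stx11 (0.85, 0.76) and the inhibitory receptor Tigit (0.85, 0.81). Mcl1 had Ift80 (0.81, 0.62), Rasgrp1 (0.81, 0.76) and Tmem64 (0.81, 0.66). Bcl2l1 had the STAT5 target Cish (0.74, 0.48), Slc7a5 (0.72, 0.62) and Ahsa1 (0.70, 0.61). Bak1 had Atpif1 (0.78, 0.54), Calr (0.78, 0.58) and P4hb (0.78, 0.53), and Bid had Tnfrsf1b (0.82, 0.60), Zcchc18 (0.81, 0.55) and Stx11 (0.81, 0.58). The nearest genes of Bax (Zdhhc16, 0.72 and 0.75), Bad (Serinc3, 0.70 and 0.42) and Bbc3 (Fadd, 0.62 and 0.64) had lower correlations over the 33 libraries than the nearest genes of the members above.

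Of the other genes of the pathway, 10 of 16 further Bcl-2 family genes, 17 of 17 apoptosome and caspase genes, 13 of 13 death receptor genes and 24 of 25 regulators of family levels were tested in the pulse-chase. In post-tamoxifen cells 2 of the 10 family genes, 1 of the 13 death receptor genes and 3 of the 24 regulators were higher in fl/fl mice, and 0, 0 and 2 were lower. Of all genes 7.23% were called there and 3.9% were called higher, so 1 of 13 is near that share. The family genes were the pro-survival Bcl2a1b (1.24 ± 0.25 log2, adjusted p = 0.00225) and Bcl2a1d (1.30 ± 0.36, adjusted p = 0.0205), near-identical copies whose reads cannot be divided with confidence. Tnfsf10, the death ligand TRAIL, was 1.68-fold higher (adjusted p = 0.00503) and the kinase gene Pim1 1.43-fold (adjusted p = 0.0241). Foxo1 and Foxo3, transcription factors known to induce Bcl2l11 and Bbc3, were lower by 0.43 and 0.53 log2 (adjusted p = 0.0335 and 0.0208). The medians of these 3 lists were 0.03, -0.05 and -0.01, against 0.01 for all genes. In the chimera 1 regulator was called, Dynll1, a binding partner of Bim (0.45 ± 0.12, adjusted p = 0.0469). That is 1 of 24 regulators, where 2.41% of all genes were called. None of the 9, 17 and 13 tested genes in the other 3 lists was called. Between genotypes in labeled and in ex-Foxp3 cells none of the 4 lists held a called gene, where 0.0101% and 0.181% of all genes were called.

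Myb, known as an activator of Bcl2 in lymphocytes, was lower than in post-tamoxifen cells in all 4 comparisons, with log2 differences of -2.01 in labeled controls (adjusted p = 1.97e-05), -1.05 in labeled fl/fl (0.00739), -1.92 in ex-Foxp3 controls (0.000159) and -1.67 in ex-Foxp3 fl/fl cells (2.35e-05). Il2ra, the IL-2 receptor alpha chain, was lower in ex-Foxp3 cells than in labeled cells of controls (-1.51 ± 0.25 log2, adjusted p = 0.00334) and fl/fl mice (-2.05 ± 0.23, adjusted p = 2.66e-06). Tnfsf10 was lower there as well (-0.79 and -0.56, adjusted p = 0.0245 and 0.0289), and in fl/fl mice so was Pim1 (-0.80, adjusted p = 0.000216). Against post-tamoxifen fl/fl cells, ex-Foxp3 cells had more Il7r, the receptor of a cytokine known to sustain Bcl2 (1.19 ± 0.23, adjusted p = 0.000954), and less Il2ra (-2.34), Il2rb (-0.47) and Casp8 (-0.36, adjusted p = 0.0152).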

How the data were processed

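Cells were sorted by flow cytometry, and their RNA (AllPrep Micro kit) was made into SMARTer Stranded Total RNA-Seq v2 libraries, per the labels' protocols. The submitters' processing notes name bcl2fastq 2.17.1.14, TopHat2 2.1.0 and the builds mm10 and GRCm38. The table deposited by the authors holds unnormalized counts of 19434 genes in 41 libraries. Its annotation and the strand setting used in counting are not given in the sources used here.

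Members were matched by symbol. The main analysis was edgeR's robust quasi-likelihood test (version 4.0.16, R 4.3.3) after filterByExpr with the groups and TMM scaling, with 2-sided F-tests and Benjamini-Hochberg adjustment over all genes tested, calling an adjusted p below 0.05. Fits were made apart for the chimera (8 libraries, 9569 genes) and the pulse-chase (33 libraries, 6 groups, 9921 genes), with common biological coefficients of variation of 0.134 and 0.215. Levels are CPM of the TMM-scaled library, mean ± SD; per-kilobase levels use merged GENCODE M21 exons. Marker sums are CPM of the total. The pipeline was tested on simulated counts. The labels call the libraries biological replicates, and in all 87 replicate pairs the counts differed by more than sampling noise (chi-square per degree of freedom 2.6 or more).

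The members, gene lists and tests were chosen with earlier results of these data known. All 10 members are named; of the other pathway genes, up to 6 called genes per list and comparison; and for each member the 3 genes most correlated with it (log2 CPM, prior count 2) among genes whose mean log2 CPM reached 4, without predicted, pseudo- and ribosomal protein genes. A few results under these rules are not reported here.

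Replicate numbers recur in every group without a label that ties a number to a mouse; Y-linked reads appear in all 3 populations of controls 2 and 3. Deviations from the group means correlated above 0.1 for every same-numbered pair in labeled genotype (0.123 to 0.404, although these are different mice), ex-Foxp3 against labeled controls (0.244 to 0.425) and fl/fl (0.222 to 0.426), labeled against post-tamoxifen fl/fl (0.279 to 0.505) and ex-Foxp3 against post-tamoxifen fl/fl (0.153 to 0.481). There a fit blocked by number is given where it changes a call. Between populations the block was the number within a genotype, which treats same-numbered libraries of a genotype as coming from the same mouse. Between genotypes it was the number alone.

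Alternatives were DESeq2 1.42.0, its size factors in edgeR, total counts without scaling factors, other count filters, the replicate block, fits on only the groups compared and omission of single libraries. The split by number, fits without doubted libraries, and G2/M or myeloid marker terms were added after seeing the data. RefSeq start-site windows (GRCm38.p6) matched 9 of 10 members; the other is named without a sequence. Plots were drawn in Python 3.11.15 (pandas 2.3.3, matplotlib 3.10.9).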

Additional observations from a re-analysis of the deposited data

Results flagged for a closer look

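In 4 of 80 combinations of a member and a group, 1 library stood apart from the rest of its group by a range test (chance gives about 1 in 20). Bax in labeled control 5 was at 11.3 CPM, with the other 4 libraries at 29.3 to 34.7. Bbc3 in the same library was at 24.4 CPM, with the others at 9.02 to 12.3. Bbc3 in ex-Foxp3 fl/fl 2 was at 17.1 CPM, with the others at 5.34 to 9.73. Bcl2l1 in chimera control 4, which also has B cell and G2/M markers, was at 54.3 CPM, with the others at 70.9 to 73.2.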

How the results depend on the processing

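Of 35 pairs of a member and a comparison with an unadjusted p under 0.05, 818 alternative values kept their direction; 718 stayed on the same side of the threshold, 41 lost the call, 59 gained it and 0 reversed. The other 85 pairs had 191 sign changes among 2202 values and were called 4 times. The number of members called, out of 10, moved by over 1.5 times as follows (smaller moves, such as 2 to 3 in ex-Foxp3 against post-tamoxifen controls under DESeq2, are not listed); no cause was tested. The share of all genes called in the same fit is given in brackets. For the chimera (1 called, 2.41%) DESeq2 gave 2 (2.37%), and leaving out controls 3 and 4 or adding the G2/M term gave 0 (0.962% and 1.4%). For labeled and ex-Foxp3 genotype (0 each, 0.0101% and 0.181%) fits of the compared groups alone gave 1 (0.443%) and 2 (1.5%). For post-tamoxifen genotype (2, 7.23%) such a fit and the G2/M term gave 1 (1.57% and 3.2%), numbers 1 to 3 gave 4 (13.4%), and numbers 4 and above gave 0 (2.1%). For ex-Foxp3 against labeled (0 each, 0.353% in controls and 4.09% in fl/fl mice), DESeq2 gave 1 in controls (0.835%). In fl/fl mice DESeq2 (5.32%), its size factors in edgeR (4.04%), total counts (4.12%), a minimum of 10 counts in every library of a group (4.48%), and leaving out low-Foxp3 libraries (4.82%) gave 1 each. For labeled against post-tamoxifen controls (2, 7.93%) a fit of the compared groups alone gave an equal count (5.33%) with Bcl2 in place of Bid, numbers 1 to 3 gave 0 (1.26%) and the myeloid term 1 (2.47%). For labeled against post-tamoxifen fl/fl (1, 4.58%) DESeq2 (4.82%), the G2/M term (5.61%) and leaving out low-Foxp3 libraries (5.25%) gave 2, numbers 4 and above 3 (7.79%), numbers 1 to 3 and the myeloid term 0 (0.787% and 0.131%). For ex-Foxp3 against post-tamoxifen controls (2, 5.33%) numbers 1 to 3 and the myeloid term gave 0 (0% and 0.0101%), the G2/M term 4 (7.56%) and leaving out low-Foxp3 libraries 5 (9.29%). For ex-Foxp3 against post-tamoxifen fl/fl (3, 15.2%) numbers 1 to 3 gave 1 (11%), the myeloid term 0 (2.11%) and leaving out low-Foxp3 libraries 5 (12.8%).

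With the replicate block, 1 member was called in ex-Foxp3 against labeled controls (2.13% of all genes) and 1 in fl/fl mice (9%). The block gave 2 in labeled against post-tamoxifen fl/fl (8.11%) and 4 in ex-Foxp3 against post-tamoxifen controls (8.85%), where the numbers did not pair the libraries by the correlation check (0.0852 to 0.23). In the comparisons whose numbers paired, the block changed no call of a member other than those given in the report.

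Leaving out each library in turn gave 0 to 1 members in the chimera, 1 to 3 in post-tamoxifen genotype, 0 to 1 in ex-Foxp3 against labeled fl/fl, 2 to 3 and 1 to 2 in labeled against post-tamoxifen controls and fl/fl, 1 to 4 and 2 to 4 in ex-Foxp3 against post-tamoxifen controls and fl/fl, and 0 elsewhere. The share of all genes called also moved between these fits, for example from 1.03% to 3.63% in the chimera. Counts limit Pmaip1, Bad, Bid and Bbc3 most, with medians of 49, 26, 59 and 26 reads per library.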
